A study of Mus musculus with 41 samples.

Results

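The genes described here are 37 mouse genes of fatty acid oxidation and of the peroxisome, taken as a fixed list of symbols and found among the 48795 genes of the deposited count table. All 37 were matched to an Ensembl identifier, and all 37 passed the filter on low counts in both cohorts. They were listed here under 7 roles. Under mitochondrial beta-oxidation were 5 acyl-CoA dehydrogenases for the first steps and 7 enzymes of the later steps. The others held 9 peroxisomal oxidation enzymes, 4 genes of the carnitine shuttle and 5 of fatty acid activation. Electron transfer had 3, and peroxisome formation, membrane transport and catalase had 4. Kidneys of mice were studied after the blood supply of a single kidney had been closed and reopened (unilateral ischemia-reperfusion injury, UIRI), with or without later removal of the uninjured kidney (nephrectomy, Nx). In the first cohort the mice were males 8 to 10 weeks old, and ischemia of the left kidney lasted 21 min at a core temperature of 34 °C. Its 4 groups of 6 libraries were Control without injury, UIRI d3 taken on day 3, UIRI+Nx d7 taken on day 7 after nephrectomy on day 3, and UIRI d7 taken on day 7 without it. By the study's design the UIRI d7 mice were operated on too, with a sham nephrectomy on day 3, which the UIRI d3 mice lacked. A second cohort held WT_IRd3 (n = 6), WT_IRd7 (n = 6) and WT_IRNxd7 (n = 4), with no Control; its labels read as wild type and give the injury and the day, but not the sex, age, ischemia time or day of nephrectomy. The strain is not given for either cohort, and nothing in the labels states that each library of the second cohort came from its own mouse, so p-values there measure the spread between libraries.

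Fatty acids are activated to acyl-CoA, carried into mitochondria as carnitine esters, and shortened by repeated rounds of dehydrogenation, hydration, a further dehydrogenation and thiolytic cleavage. Electrons from the acyl-CoA dehydrogenases reach the respiratory chain through electron transfer flavoprotein and its dehydrogenase, while peroxisomes shorten very long and branched chains with oxidases that make hydrogen peroxide, which catalase removes. The proximal tubule of the kidney relies on this pathway for most of its energy, and the nuclear receptor PPAR-alpha with its partner RXR and the coactivator PGC-1alpha is known to drive the genes.

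Libraries held 5090418 to 33362940 counts in genes, and no library pair within a group agreed within sampling noise. Levels are CPM (counts scaled to a fixed library total, with TMM factors), with the 2 cohorts scaled separately, so that levels are compared only within a cohort. A gene is said to be called when its p in edgeR's quasi-likelihood test was below 0.05 after Benjamini-Hochberg adjustment across every gene tested in its cohort. The numbers in the labels and column names were read here as library runs, named 1a, 1b and 2b (the first cohort) and 2a and 2c (the second); UIRI d7 has no library in run 2b. RNA came from a section of the kidney pole, so that fewer cells of a type and less RNA per cell cannot be told apart. Against Control, markers of the proximal tubule moved with the 37 genes. Of 22 listed, 21 were tested in the first cohort, and 17 fell at UIRI d3 and 21 at UIRI d7. Over all genes 14.9% and 18.1% fell. The summed level of all 22 markers was 53167 to 79987 CPM in Control, 12503 to 19356 in UIRI d3, 7044 to 17691 in UIRI d7 and 5923 to 11231 in UIRI+Nx d7. Most of it in Control is Kap, an androgen-dependent gene. Without Kap, left out after its values were seen, the sum was 19605 to 22650 CPM in Control, 7605 to 8567 in UIRI d3, 5136 to 6907 in UIRI d7 and 5297 to 9836 in UIRI+Nx d7, and no marker was at 0 throughout a group. Macrophage and monocyte markers ran the other way, with 16 of 16 higher at UIRI d7 and a summed level of 254 to 467 CPM in Control against 2222 to 4481 CPM in UIRI d7. Fibroblast and myofibroblast markers were higher too at UIRI d7, 11 of 12, while 10 of 11 markers of the thick ascending limb and distal tubule and 9 of 12 of the collecting duct were lower. The part of cell composition in the results below was not tested.

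Summed over the 37 genes, the level was 18203 ± 1469 CPM (SD, n = 6) in Control, 7544 ± 452 in UIRI d3, 5863 ± 617 in UIRI d7 and 7127 ± 1025 in UIRI+Nx d7 (SD, n = 6 each). Every injured library of this cohort lay below every Control library. In the second cohort the sum was 7731 ± 219 CPM in WT_IRd3 (SD, n = 6), 6676 ± 987 in WT_IRd7 (SD, n = 6) and 7211 ± 1148 in WT_IRNxd7 (SD, n = 4), and those 3 groups overlapped. Acsm2 and Slc27a2 make up a large share of the sum. Without them the sum was 10284 ± 365 CPM in Control, 4789 ± 327 in UIRI d3, 4120 ± 517 in UIRI d7 and 5232 ± 553 in UIRI+Nx d7 (SD, n = 6 each). The mean of UIRI+Nx d7 was then above that of UIRI d3, where with all 37 genes it was below. The libraries of UIRI+Nx d7 and UIRI d3 overlapped in either sum. Relative to the summed proximal tubule markers without Kap, the sum over the 37 genes was 0.855 ± 0.0648 in Control, 0.947 ± 0.0501 in UIRI d3, 0.967 ± 0.0519 in UIRI d7 and 1.03 ± 0.141 in UIRI+Nx d7 (SD, n = 6 each). The ratio ran from 0.753 to 0.917 in Control and from 0.913 to 1.05 in UIRI d7, so these ranges met at their edges. With Kap kept in the markers the ratio was 0.269 ± 0.0335 in Control, 0.484 ± 0.0483 in UIRI d3, 0.55 ± 0.164 in UIRI d7 and 0.895 ± 0.105 in UIRI+Nx d7 (SD, n = 6 each), so the size of the difference from Control depended on that gene. The day 7 groups of the first cohort overlapped both ways. Without Kap the ratio ran from 0.816 to 1.16 in UIRI+Nx d7. With Kap it ran from 0.39 to 0.769 in UIRI d7 and from 0.715 to 1.02 in UIRI+Nx d7. In the second cohort the ratio without Kap ran from 0.802 to 0.942 in WT_IRd7 and from 0.961 to 1.05 in WT_IRNxd7. With Kap it ran from 0.352 to 0.541 and from 0.632 to 0.8, so these groups were apart both ways.

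**Figure D1:**
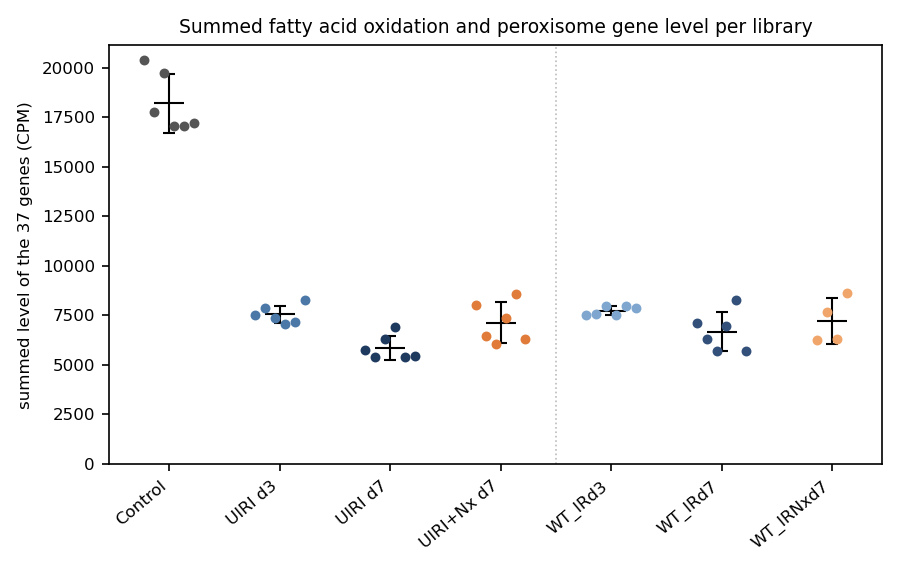
Summed level of the 37 genes in CPM (y axis, from 0) in each library (points) of the 7 groups (x axis), with the group mean and SD as black bars; a dotted line parts the cohorts. The Control libraries average 18203 CPM, and all injured libraries of their cohort lie below them; the second cohort was scaled separately.

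All 37 estimates were below Control at UIRI d3 and at UIRI d7, where 7845 and 7498 of all 15701 genes were. At UIRI d3 33 of 37 genes were called lower and none higher, where 14.9% of all genes tested were called lower and 17.8% higher; the median log2 fold change of the 37 was -1.0 against 0.00 over all genes. At UIRI d7 35 of 37 were called lower and none higher, against 18.1% of all genes lower and 21.5% higher, with a median of -1.22 against 0.04. At UIRI+Nx d7 25 of 37 were called lower and none higher, against 14.0% of all genes lower and 17.3% higher, with a median of -0.86 against 0.02. The levels of 18, 22 and 14 of the 37 did not overlap with Control in the 3 comparisons, where 18.4%, 20.5% and 17.1% of all genes did not. The 3 comparisons share the Control libraries. Hadha and Acaa1a were the genes not called at UIRI d7, and Hadha, Acaa1a, Slc25a20 and Pex19 those not called at UIRI d3. The group mean as a percentage of the Control mean had a median of 49.9% over the genes at UIRI d3, 42.9% at UIRI d7 and 54.9% at UIRI+Nx d7. It ran from 4.34% for Acsm3 to 72.7% for Acaa1a at UIRI d7, and from 2.21% for Acsm3 to 124% for Acsl1 at UIRI+Nx d7. Genes under 50% of Control numbered 19, 27 and 15 in that order. At UIRI d3 the call of Hadhb (edgeR adjusted p 0.0411) held only in the 4 of 12 fits that left out Control replicate 2 or 5 or UIRI d3 replicate 3 or 6, with adjusted p of up to 0.1. That of Acadl was lost without Control replicate 1, 2 or 3 or UIRI d3 replicate 5 (up to 0.0698), and that of Decr2, a peroxisomal reductase, without Control replicate 1 (0.0648). At UIRI+Nx d7 the call of Hadha was lost without Control replicate 5 or UIRI+Nx d7 replicate 2 (adjusted p of up to 0.108). Within library run 1a alone, 23, 27 and 15 of the 37 were called lower in the 3 comparisons, and within run 2b 22 were at UIRI d3 and 12 at UIRI+Nx d7.

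**Figure D2:**
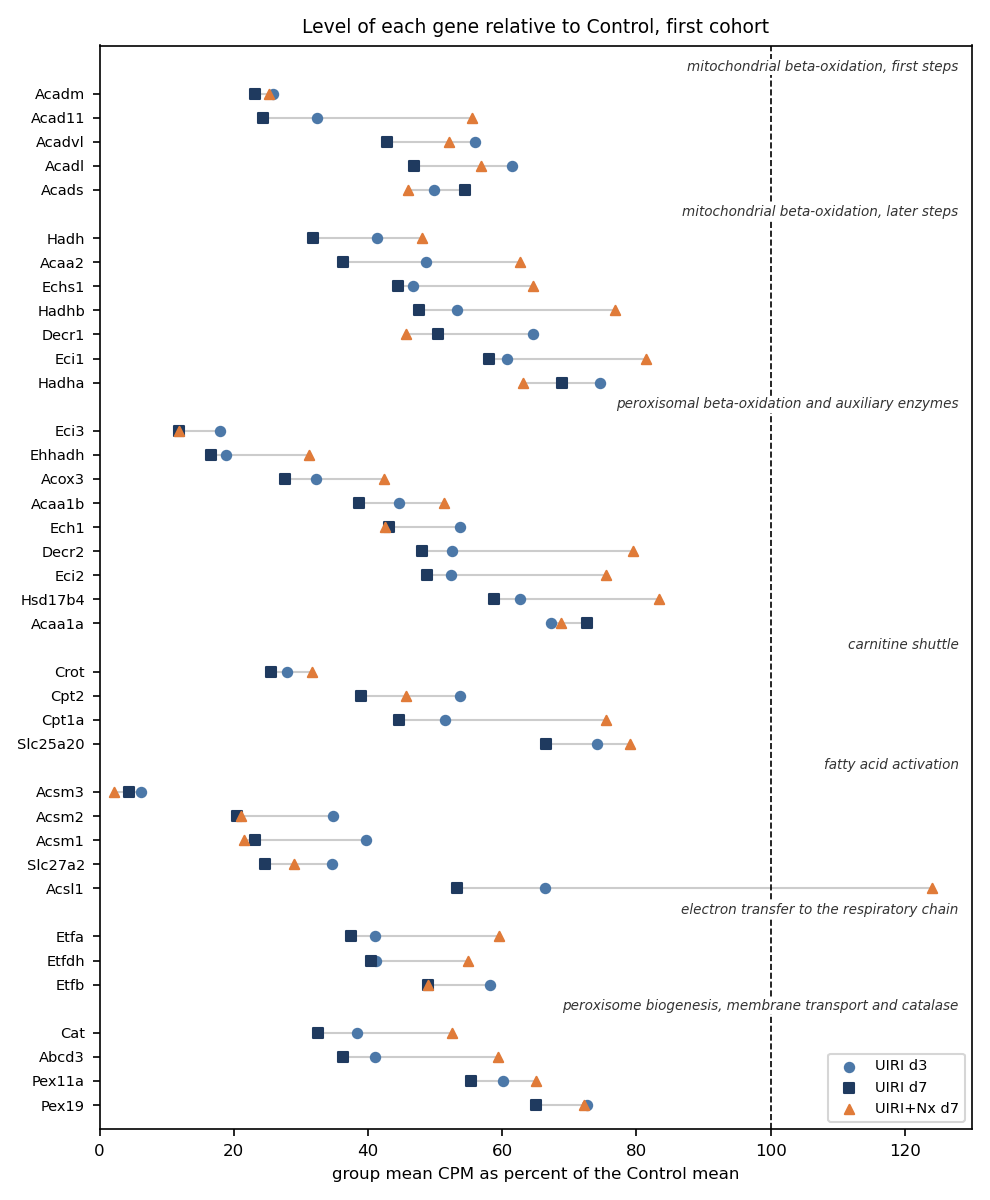
Mean level of each gene (y axis, grouped by role) as a percentage of its Control mean (x axis, dashed line at 100) in UIRI d3 (circles), UIRI d7 (squares) and UIRI+Nx d7 (triangles), n = 6 libraries per mean. Every circle and square lies below 100, and the triangles reach from 2.21 for Acsm3 to 124 for Acsl1.

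The acyl-CoA dehydrogenases of Acadvl, Acadl, Acadm and Acads carry out the first step of each mitochondrial round, each for its own chain length. Acad11 was listed with them. All 5 fell at UIRI d3 and at UIRI d7, and all 5 were still lower at UIRI+Nx d7. Acadm, the medium-chain enzyme, ran from 603 to 890 CPM in Control (median 701), from 151 to 245 in UIRI d3 (median 174), from 108 to 245 in UIRI d7 (median 160) and from 127 to 222 in UIRI+Nx d7 (median 188). No injured library reached the lowest Control library, and the injured groups overlapped each other throughout. The log2 fold change at UIRI d7 was -2.12 (SE 0.18, edgeR adjusted p 1.25e-09). Acadvl, the very-long-chain enzyme, ran from 271 to 295 CPM in Control (median 282) and from 94.3 to 157 in UIRI d7 (median 120), a log2 fold change of -1.22 (SE 0.15, edgeR adjusted p 2.44e-07). Its groups stood apart, with a Control spread far narrower than that of the other dehydrogenases. Acad11, a further family member, ran from 50.8 to 139 CPM in Control (median 87.9), 9.41 to 37.8 in UIRI d7 (median 21.5) and 34.6 to 64.6 in UIRI+Nx d7 (median 52.7). Its call at UIRI+Nx d7 against Control was lost without Control replicate 1 or 6 or UIRI+Nx d7 replicate 3 or 6 (edgeR adjusted p of up to 0.0788). Acadl and Acads, the long-chain and short-chain enzymes, were at 46.8% and 54.4% of Control at UIRI d7, and the call of Acads there was lost without Control replicate 5 (edgeR adjusted p 0.0579).

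Of the 7 later enzymes 6 fell at UIRI d3 and 6 at UIRI d7. Echs1, the short-chain hydratase, ran from 183 to 261 CPM in Control (median 201), 87.9 to 108 in UIRI d3 (median 97) and 65.6 to 120 in UIRI d7 (median 86.6). Both UIRI groups lay wholly below Control, and the log2 fold change at UIRI d7 was -1.17 (SE 0.18, edgeR adjusted p 6.4e-06). UIRI+Nx d7, at 109 to 217 CPM, overlapped with Control only through replicate 4 at 217. Its other libraries, at 109 to 132 CPM, also lay below every Control library. Acaa2, the thiolase that cleaves the chain, ran from 239 to 419 CPM in Control (median 265) and 70.2 to 144 in UIRI d7 (median 118), again without overlap (log2 fold change -1.46, SE 0.21, edgeR adjusted p 2.55e-06). Decr1, the reductase needed for unsaturated chains, ran from 229 to 341 CPM in Control (median 259), 102 to 179 in UIRI d7 (median 128) and 90.9 to 187 in UIRI+Nx d7 (median 118). Its level stayed apart from Control in all 3 injured groups. Hadh, the dehydrogenase of the hydroxyacyl step, ran from 312 to 781 CPM in Control (median 599) and 36.6 to 252 in UIRI d7 (median 207), without overlap (log2 fold change -1.65, SE 0.34, edgeR adjusted p 0.000339). Eci1 was at 58.0% of Control at UIRI d7 and 81.5% at UIRI+Nx d7. Hadha and Hadhb encode the alpha and beta chains of the mitochondrial trifunctional protein, and their annotated starts face away from each other with 85 bases between them on chromosome 5. Hadha was 172 to 384 CPM in Control (median 192) and 103 to 248 in UIRI d7 (median 144), with overlapping groups and a log2 fold change of -0.54 (SE 0.22, edgeR adjusted p 0.0562); it was called in 5 of 12 fits that left out a library, those without Control replicate 1, 3 or 6 or UIRI d7 replicate 3 or 4. Hadhb was 25.9 to 68.7 CPM in Control (median 50.6) and 6.89 to 38.3 in UIRI d7 (median 21.3), a log2 fold change of -1.07 (SE 0.34, edgeR adjusted p 0.0137). The difference between these 2 changes was not tested, and 35.4% of the 50-base words at the 3′ end of Hadhb also occur in other genes, which makes its count less certain.

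The interval between the annotated starts of Hadha and Hadhb is shown because both genes of the complex start at its edges (GRCm38, chr5:30155163-30155247, plus strand, from RefSeq sequence of GRCm38.p6):
Hadha-Hadhb interval: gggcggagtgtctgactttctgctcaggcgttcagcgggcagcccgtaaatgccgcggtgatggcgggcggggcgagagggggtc

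Among the 9 peroxisomal enzymes, 8 fell at UIRI d3 and 8 at UIRI d7, and Acaa1a, a peroxisomal thiolase, was not called in any comparison. Eci3, an isomerase for unsaturated chains, ran from 117 to 308 CPM in Control (median 178), 22.6 to 59.1 in UIRI d3 (median 28.1), 15.7 to 30.1 in UIRI d7 (median 23.9) and 13.3 to 46.9 in UIRI+Nx d7 (median 18.1). Control stood apart from all injured libraries, with a log2 fold change of -3.07 at UIRI d7 (SE 0.32, edgeR adjusted p 2.13e-08). Its neighbour Eci2, which shares part of its 3′ end with Eci3, was at 48.8% of Control at UIRI d7 and 75.4% at UIRI+Nx d7, while Eci3 was at 11.9% in both. For Eci2, UIRI+Nx d7 replicate 4 held 175 CPM and the other libraries of that group 82.7 to 103. It was not called at UIRI+Nx d7 against Control (edgeR adjusted p 0.118), but was called lower without that library (0.0111). Acox3, an oxidase for branched chains, ran from 281 to 430 CPM in Control (median 337) and 52 to 143 in UIRI d7 (median 94.7), with no overlap (log2 fold change -1.86, SE 0.25, edgeR adjusted p 9.15e-07). Ech1, an isomerase of dienoyl-CoA, ran from 280 to 393 CPM in Control (median 341) and 96.1 to 197 in UIRI d7 (median 154), also without overlap (log2 fold change -1.21, SE 0.20, edgeR adjusted p 1.86e-05). Ehhadh, the L-bifunctional enzyme, varied widely within groups. Control replicate 1 held 119 CPM and the other Control libraries 10.9 to 34.4. Its UIRI d7 levels of 2.16 to 13.7 CPM overlapped with Control, and the call at UIRI+Nx d7 (edgeR adjusted p 0.0262) was lost without Control replicate 1 or without UIRI+Nx d7 replicate 6, with adjusted p of up to 0.209. Hsd17b4, the D-bifunctional enzyme, was called lower at UIRI d3 with an adjusted p of 0.0438, and that call held in only 3 of 12 fits that left out a library, those without Control replicate 2 or 5 or UIRI d3 replicate 6 (adjusted p of up to 0.144); its call at UIRI d7 was lost without Control replicate 1 (0.0663). Acaa1b, the other peroxisomal thiolase, was at 38.7% of Control at UIRI d7, and Decr2 at 48.0%. Acaa1a and Acaa1b share 31.6% and 38.8% of the 50-base words of their 3′ ends with each other, so reads could be split between them.

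Carnitine esters move fatty acids between compartments. Crot, which makes medium-chain carnitine esters in the peroxisome, ran from 246 to 326 CPM in Control (median 262), 55 to 97.7 in UIRI d3 (median 77), 52.2 to 76.8 in UIRI d7 (median 73.7) and 72.8 to 118 in UIRI+Nx d7 (median 82.6). All injured libraries were far below Control (UIRI d7 log2 fold change -1.97, SE 0.16, edgeR adjusted p 5.17e-10). Cpt1a, the rate-setting enzyme of mitochondrial entry, ran from 302 to 469 CPM in Control (median 397), 142 to 254 in UIRI d3 (median 193), 123 to 243 in UIRI d7 (median 168) and 246 to 353 in UIRI+Nx d7 (median 273). It stood apart from Control in both UIRI groups and overlapped with Control after nephrectomy, with log2 fold changes of -1.16 at UIRI d7 (SE 0.17, edgeR adjusted p 5.34e-06) and -0.41 at UIRI+Nx d7 (SE 0.17, edgeR adjusted p 0.0732). Cpt2, which regenerates acyl-CoA inside the mitochondrion, ran from 196 to 249 CPM in Control (median 212), 65 to 105 in UIRI d7 (median 88.4) and 74.5 to 140 in UIRI+Nx d7 (median 102), and no injured library reached Control. Slc25a20, the carrier of the inner membrane, was at 74.1%, 66.6% and 79.1% of Control in the 3 injured groups, and its call at UIRI d7 (edgeR adjusted p 0.0265) was lost without Control replicate 1 or 6 or UIRI d7 replicate 3 or 4, with adjusted p of up to 0.0693.

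The genes of fatty acid activation had the lowest median of the 7 roles at UIRI d7, a log2 fold change of -2.11 over 5 genes that were all called lower. The 3 Acsm genes, medium-chain acyl-CoA synthetases of the mitochondrion, lie together on chromosome 7 on the plus strand, from 119554340 to 119787513 (GRCm38). Acsm2 ran from 4089 to 6425 CPM in Control (median 4632), 1217 to 2210 in UIRI d3 (median 1781), 772 to 1259 in UIRI d7 (median 997) and 594 to 1518 in UIRI+Nx d7 (median 1120). Acsm1 ran from 72.3 to 140 CPM in Control (median 87.4), 28.2 to 52.3 in UIRI d3 (median 37.1), 15.4 to 27.2 in UIRI d7 (median 23) and 14.3 to 27 in UIRI+Nx d7 (median 19.3). For both genes Control stood apart from the injured groups, and the 2 day 7 groups overlapped; the log2 fold changes at UIRI d7 were -2.29 (SE 0.22, edgeR adjusted p 7.68e-09) for Acsm2 and -2.11 (SE 0.21, edgeR adjusted p 9.27e-09) for Acsm1. Acsm3 ran from 91.6 to 578 CPM in Control (median 217), 8.28 to 34.2 in UIRI d3 (median 17.3), 1.08 to 27 in UIRI d7 (median 13.7) and 2.08 to 13.5 in UIRI+Nx d7 (median 6.11). Its log2 fold change was -4.01 (SE 0.58) at UIRI d3, -4.51 (SE 0.59) at UIRI d7 and -5.48 (SE 0.62) at UIRI+Nx d7, the lowest of the 37 in each comparison. Slc27a2, a very-long-chain acyl-CoA synthetase that also takes up fatty acids, ran from 1974 to 3649 CPM in Control (median 2916) and 599 to 872 in UIRI d7 (median 716), without overlap (log2 fold change -2.02, SE 0.19, edgeR adjusted p 3.26e-09). In Control the 3 libraries of run 1a held 3328 to 3649 CPM of Slc27a2 and the other 3, of runs 1b and 2b, held 1974 to 2505. Acsm3 was split likewise, at 270 to 578 CPM in run 1a and 91.6 to 164 in the other Control libraries. So were Acadl, at 659 to 728 against 268 to 452 CPM, Acadm and Cpt1a. Acads, Cat, Acsm1 and Cpt2 were higher in every Control library outside run 1a. The share of all genes split in this way was not counted, so whether the Control spread followed the run was not tested. Acsl1, the long-chain synthetase, ran from 148 to 202 CPM in Control (median 178), 101 to 150 in UIRI d3 (median 115), 74.2 to 132 in UIRI d7 (median 85.2) and 137 to 292 in UIRI+Nx d7 (median 219). It was the single gene of the 37 with an estimate above Control after nephrectomy (log2 fold change 0.31, SE 0.17, edgeR adjusted p 0.166).

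**Figure D3:**
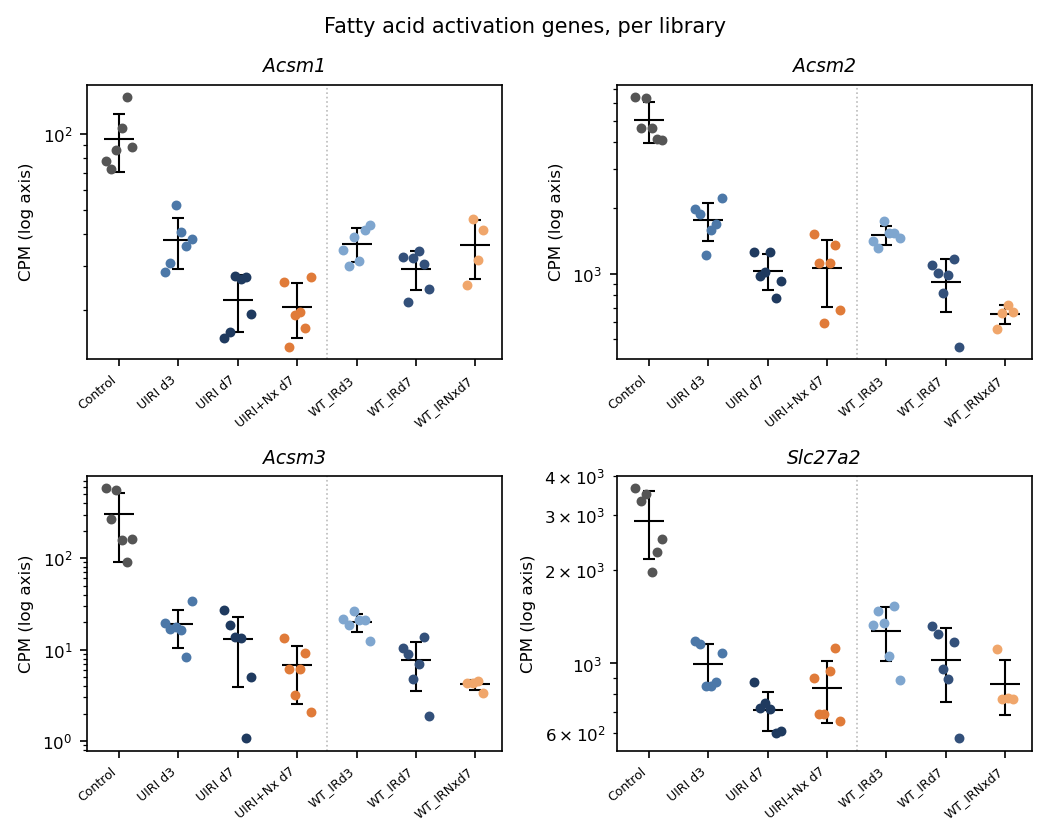
Level in CPM on a log axis (y axis) of Acsm1, Acsm2, Acsm3 and Slc27a2 in each library (points) of the 7 groups (x axis), with group mean and SD as black bars and a dotted line between cohorts. The injured libraries of the first cohort lie below the Control libraries for each of the 4 genes, and Acsm3 reaches 1.08 CPM in UIRI d7.

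Electron transfer flavoprotein has an alpha and a beta chain, encoded by Etfa and Etfb, and passes its electrons to the dehydrogenase encoded by Etfdh. All 3 were called lower at UIRI d3 and at UIRI d7, and their groups overlapped with Control. Etfb ran from 609 to 1336 CPM in Control (median 926) and 253 to 828 in UIRI d7 (median 394), a log2 fold change of -1.03 (SE 0.24, edgeR adjusted p 0.0012), but 58.1% of the 50-base words at its 3′ end occur in Gm45233, a gene model that overlaps it on the same strand. Etfa ran from 55.8 to 166 CPM in Control (median 112) and 23.4 to 75 in UIRI d7 (median 37.8), with a log2 fold change of -1.41 (SE 0.35, edgeR adjusted p 0.00202). Etfdh ran from 16.1 to 90.8 CPM in Control (median 39.1) and 11.1 to 33.6 in UIRI d7 (median 16.4), with a log2 fold change of -1.30 (SE 0.37, edgeR adjusted p 0.00614). After nephrectomy Etfb alone of the 3 was called below Control, while Etfa and Etfdh stood at 59.5% and 54.9% of Control without a call.

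The remaining 4 genes serve the peroxisome itself. Cat, catalase, ran from 725 to 1744 CPM in Control (median 953), 256 to 506 in UIRI d3 (median 433), 183 to 472 in UIRI d7 (median 349) and 418 to 698 in UIRI+Nx d7 (median 553). All 3 injured groups lay below Control (UIRI d7 log2 fold change -1.62, SE 0.25, edgeR adjusted p 7.05e-06). Abcd3, a transporter of acyl-CoA in the peroxisomal membrane, ran from 251 to 549 CPM in Control (median 428) and 111 to 194 in UIRI d7 (median 150), with no overlap (log2 fold change -1.46, SE 0.22, edgeR adjusted p 5.14e-06). Pex11a, which promotes peroxisome division, ran from 234 to 474 CPM in Control (median 346) and 152 to 230 in UIRI d7 (median 191), just apart (log2 fold change -0.85, SE 0.19, edgeR adjusted p 0.000821). Pex19, an import receptor for membrane proteins, was at 65.0% of Control at UIRI d7 and was called there but neither at UIRI d3 nor at UIRI+Nx d7.

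Nephrectomy was compared with sham operation at day 7 of the first cohort. Of the 37 genes 5 were called higher in UIRI+Nx d7 than in UIRI d7 and none lower. Over all genes 3.17% were called higher and 3.46% lower. The median log2 fold change was 0.31 against -0.01 over all genes. The means of 29 of the 37 were higher after nephrectomy, where 7675 of all 15701 genes had an estimate above 0. The comparison shares the UIRI d7 libraries with the comparison of UIRI d7 with Control. Acsl1 was 137 CPM in UIRI+Nx d7 replicate 6 and 211 to 292 in the other 5 libraries, against 74.2 to 132 in UIRI d7. The groups did not overlap, as for 3.01% of all genes, and the log2 fold change was 1.22 (SE 0.17, edgeR adjusted p 5.45e-05). Cpt1a, at 246 to 353 CPM against 123 to 243, also stood just apart (log2 fold change 0.76, SE 0.17, edgeR adjusted p 0.00793). Acad11 overlapped in single libraries, at 34.6 to 64.6 CPM against 9.41 to 37.8 (log2 fold change 1.18, SE 0.29, edgeR adjusted p 0.0142). Acaa2 overlapped too, at 124 to 266 CPM against 70.2 to 144 (log2 fold change 0.79, SE 0.20, edgeR adjusted p 0.019). Abcd3, the last of the 5, was at 161 to 354 CPM against 111 to 194 (log2 fold change 0.71, SE 0.21, edgeR adjusted p 0.0455). The calls of Acsl1, Cpt1a and Acad11 held whichever library was left out. That of Acaa2 was lost without UIRI d7 replicate 2 or UIRI+Nx d7 replicate 5, with adjusted p of up to 0.0568, and that of Abcd3 held only without UIRI d7 replicate 1 or UIRI+Nx d7 replicate 4 or 6, with adjusted p of up to 0.11. Within library run 1a, with 3 libraries each, a single gene of the 37 was called. Acadm, Acsm1, Acsm2 and Eci3, at 11.9% to 25.3% of Control after nephrectomy, had log2 fold changes of -0.10 to 0.13 against UIRI d7 and were not called. Acsm3, the lowest of the 37 at 2.21% of Control, had a log2 fold change of -0.97 (SE 0.54, edgeR adjusted p 0.316) and was not called either. Of the proximal tubule markers 3 of 21 were higher with nephrectomy and Kap was lower (1033 ± 348 against 5554 ± 3798 CPM, SD, n = 6 each), while 3 of 16 macrophage and 5 of 7 lymphocyte markers were lower and 2 of 12 collecting duct markers higher; the part of these cells in the result was not tested.

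**Figure D4:**
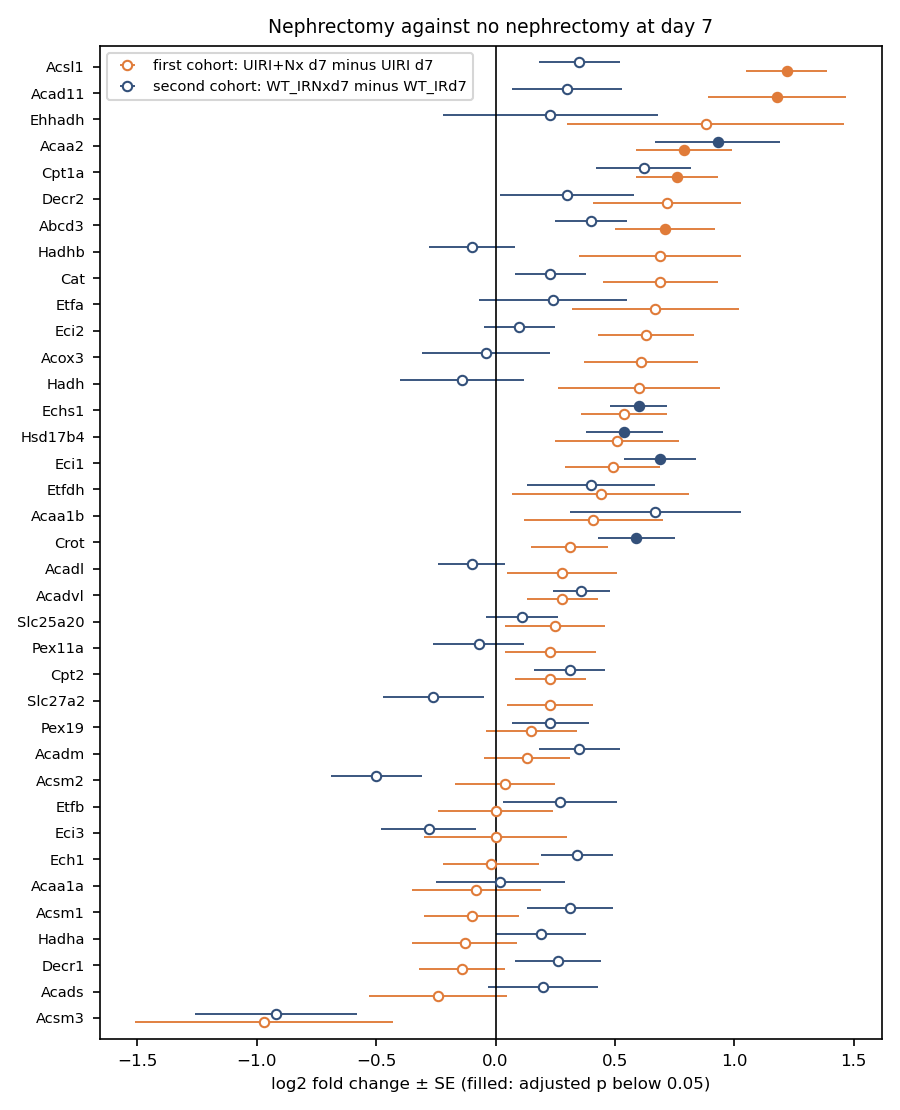
Log2 fold change with its SE (x axis) of the day 7 groups with against without nephrectomy for each gene (y axis), in the first (orange) and the second cohort (blue); filled points have an adjusted p below 0.05. Acsl1 lies highest in the first cohort at 1.22, Acaa2 in the second at 0.93, and Acsm3 lowest in both.

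In the second cohort 5 of the 37 genes were called higher in WT_IRNxd7 than in WT_IRd7 and none lower. Over all genes 2.58% were called higher and 2.66% lower. The median log2 fold change was 0.26 against 0.0 over all genes. Echs1 was 140, 133, 143 and 150 CPM in the 4 nephrectomy libraries and 74.6 to 113 in WT_IRd7. The groups were apart, as for 6.05% of all genes, with a log2 fold change of 0.60 (SE 0.12, edgeR adjusted p 0.00682). Eci1, an isomerase of mitochondrial oxidation, was 57.0, 49.1, 42.9 and 44.0 CPM against 21.3 to 35.4, also apart (log2 fold change 0.69, SE 0.15, edgeR adjusted p 0.0115). Crot was 92.8, 125, 93.7 and 119 CPM against 49.2 to 91.0, so the groups were barely apart (log2 fold change 0.59, SE 0.16, edgeR adjusted p 0.0367). Acaa2 was 134, 239, 110 and 321 CPM against 67.3 to 133 (log2 fold change 0.93, SE 0.26, edgeR adjusted p 0.0417). Its replicate 3 lay within the range of WT_IRd7, and its other libraries lay above it. Hsd17b4 was 69.4, 73.5, 43.0 and 64.6 CPM against 35.4 to 52.4, with replicate 3 again inside the other range (log2 fold change 0.54, SE 0.16, edgeR adjusted p 0.0491). Without WT_IRd7 replicate 6, 3 genes were called higher and 2 lower, Acsm2 (edgeR adjusted p 0.01) and Acsm3 (0.0207), so the absence of lower calls rested on that library. The calls of Echs1 and Eci1 held whichever library was left out. Those of Acaa2, Crot and Hsd17b4 depended on single libraries. Acaa2 was lost without WT_IRNxd7 replicate 2 or 4 or WT_IRd7 replicate 1, 2, 3 or 4 (adjusted p of up to 0.182), and Crot without WT_IRNxd7 replicate 2 or 4 or WT_IRd7 replicate 3, 4 or 6 (up to 0.158). Hsd17b4 was kept only without WT_IRNxd7 replicate 3 or WT_IRd7 replicate 3 (up to 0.205). With the replicate number as a block 3 genes were called, and within library runs 2a and 2c, with at most 4 libraries a group, none were. Proximal tubule markers went both ways here, with 3 higher and 4 lower of 22, a summed level without Kap of 6604 to 9610 CPM in WT_IRd7 and 6442 to 8602 CPM in WT_IRNxd7, and 2 of 16 macrophage, 3 of 7 lymphocyte and 2 of 7 red blood cell markers lower. Of the collecting duct markers 4 of 12 were higher, and the part of these cells was not tested.

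Set side by side, the cohorts share no libraries. Of the 37 genes 24 (64.9%) had the same sign of the nephrectomy effect in both, 22 of them higher, where 59.2% of all genes did. Acaa2 was the single gene called in both cohorts, which is 20.0% of the calls of each. Acsl1, with the largest change in the first cohort, was 136, 199, 108 and 197 CPM in WT_IRNxd7 and 111 to 148 in WT_IRd7, a log2 fold change of 0.35 (SE 0.17, edgeR adjusted p 0.27). Cpt1a was 218, 355, 171 and 306 CPM against 129 to 256 (log2 fold change 0.62, SE 0.20, edgeR adjusted p 0.0775). Whether the effect differed between cohorts was tested with an interaction term, fitted with edgeR to all 40 libraries and 16606 genes, and 0.0% of all genes were called. None of the 37 genes was called there, with 2 below an unadjusted p of 0.05 among 1411 such genes, and DESeq2 called 4 genes, none among the 37. For Acsl1 the second effect was lower than the first by 0.86 on the log2 scale (SE 0.24, edgeR adjusted p 0.443).

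**Figure D5:**
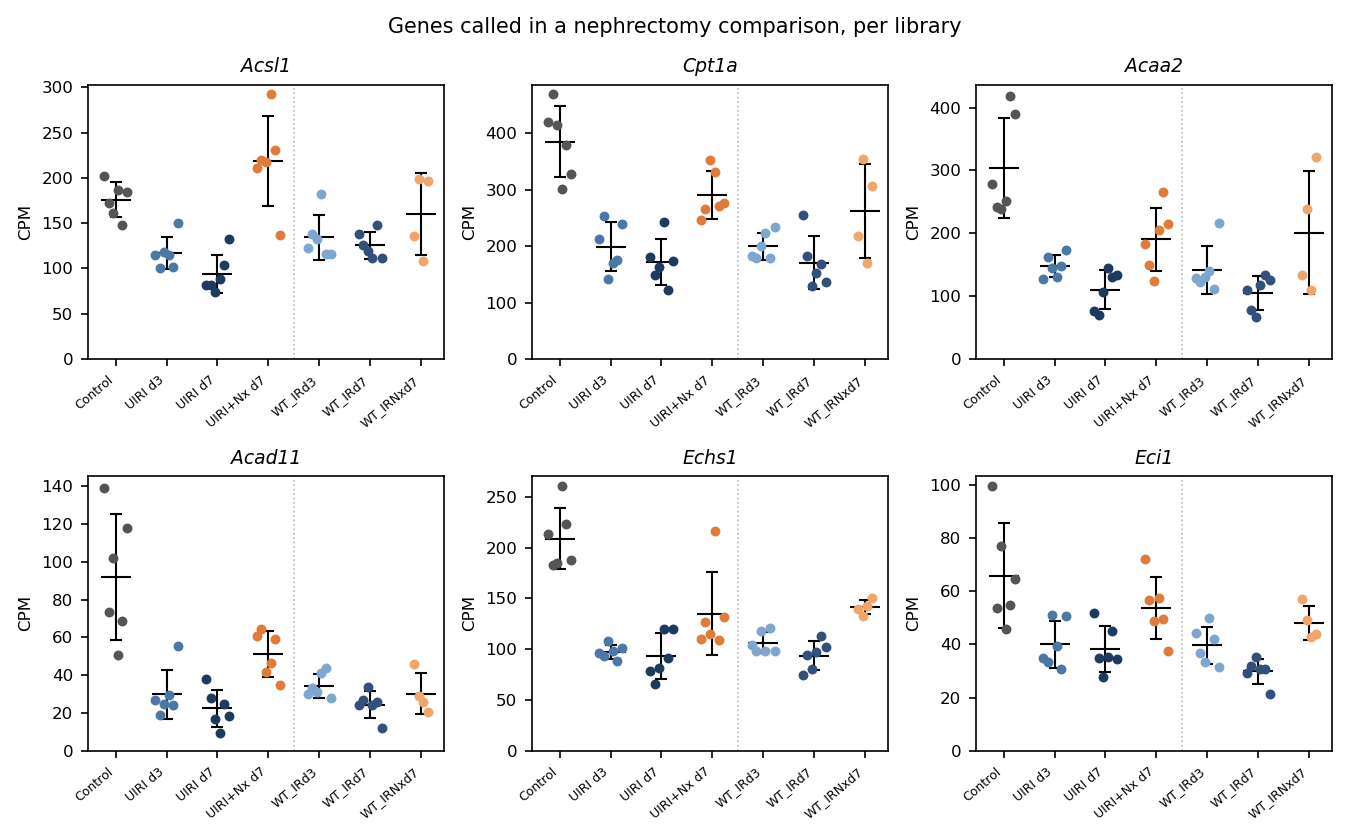
Level in CPM (y axis, from 0) of Acsl1, Cpt1a, Acaa2, Acad11, Echs1 and Eci1, each called in a nephrectomy comparison of either cohort, in each library (points) of the 7 groups (x axis), with group mean and SD as black bars and a dotted line between cohorts. In Acsl1 the UIRI+Nx d7 libraries reach 292 CPM and all lie above UIRI d7; in Echs1 the WT_IRNxd7 libraries lie between 133 and 150 CPM, above WT_IRd7.

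Between day 3 and day 7 without nephrectomy, 35 of the 37 means were lower at the later day in the first cohort. Of all 15701 genes 7593 had an estimate below 0. The median log2 fold change of the 37 was -0.21 against 0.01 over all genes. A single gene was called, where 1.36% of all genes were called lower and 1.24% higher. That gene was Acsm1, at 28.2 to 52.3 CPM on day 3 and 15.4 to 27.2 on day 7, just apart, as 2.38% of all genes were (log2 fold change -0.78, SE 0.20, edgeR adjusted p 0.0352). Its call held only in the fits without UIRI d3 replicate 1 or 2 or UIRI d7 replicate 3, 4 or 5, with adjusted p of up to 0.0985 in the other 7. Acsm2 had a log2 fold change of -0.77 (SE 0.21, edgeR adjusted p 0.053). In the second cohort, where 4.05% of all genes were called lower and 4.51% higher, 2 of the 37 were, and the median was -0.24. Acsm2 ran from 1309 to 1747 CPM in WT_IRd3 (median 1494) and from 464 to 1161 in WT_IRd7 (median 994), apart from each other as for 5.46% of all genes (log2 fold change -0.70, SE 0.17, edgeR adjusted p 0.0126). Acsm3 ran from 12.4 to 26.5 CPM in WT_IRd3 (median 21) and from 1.87 to 13.8 in WT_IRd7 (median 7.93), with overlap in single libraries (log2 fold change -1.34, SE 0.29, edgeR adjusted p 0.00534). Neither was called with the library run as a covariate. WT_IRd3 lies wholly in run 2a, and why the calls were lost was not tested. Macrophage markers rose over the same days, 9 of 16 in the first cohort and 10 of 16 in the other. Of the proximal tubule markers 1 of 21 was lower and none higher in the first cohort. In the second 6 of 22 were lower and 1 higher, and 5 of 7 red blood cell markers were lower. The part of these cells was not tested. The sign was the same in both cohorts for 32 of 37 genes (86.5%), as it was for 69.5% of all genes.

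Nephrectomy at day 7 against day 3 gave 3 calls among the 37 in the first cohort, where 2.06% of all genes were called higher and 3.06% lower and 3.45% did not overlap: Acsl1 was higher (log2 fold change 0.90, SE 0.17, edgeR adjusted p 0.00136), and Acsm1 (-0.88, SE 0.20, edgeR adjusted p 0.00974) and Acsm2 (-0.72, SE 0.21, edgeR adjusted p 0.047) were lower. The call of Acsm2 held only without UIRI d3 replicate 3 or UIRI+Nx d7 replicate 1 or 5 (adjusted p of up to 0.126). In the second cohort, where 2.97% of all genes were called higher and 3.04% lower and 6.79% did not overlap, Acsm2 and Acsm3 were lower. Acsm2 was 560, 660, 716 and 669 CPM in WT_IRNxd7, all below the 1309 to 1747 CPM of WT_IRd3 (log2 fold change -1.20, SE 0.20, edgeR adjusted p 0.000688). Acsm3 was 4.36, 4.35, 4.58 and 3.37 CPM against 12.4 to 26.5, a log2 fold change of -2.26 (SE 0.35, edgeR adjusted p 0.000424). No library of WT_IRNxd7 reached the lowest of WT_IRd3 for either gene. Of the proximal tubule markers 9 of 22 were called lower and none higher in this comparison. In the first cohort 1 of 21 was lower and 1 higher. The part of these cells was not tested. These comparisons share their day 3 or day 7 libraries with those above.

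Other genes of the pathway were taken from fixed lists. At UIRI d7 18.1% of all genes were called lower than Control and 21.5% higher. Of 33 further mitochondrial fatty acid, branched-chain and ketone enzymes tested, 29 fell and 1 rose at UIRI d7; Ivd, isovaleryl-CoA dehydrogenase, went from 198 ± 30.4 to 51.3 ± 4.32 CPM (SD, n = 6 each; log2 fold change -1.95, SE 0.15). Of 36 further peroxisomal enzymes and transporters 27 fell and 2 rose, among them Phyh, the phytanoyl-CoA hydroxylase, from 556 ± 109 to 140 ± 39.9 CPM (SD, n = 6 each). Of 20 peroxins and division genes 11 fell and none rose. Of 15 genes of fatty acid uptake and binding 3 were lower and 3 higher, near the shares over all genes. The lower ones included Lpl, lipoprotein lipase, from 1747 ± 389 to 231 ± 52.9 CPM, and Cd36, a fatty acid receptor, from 251 ± 120 to 50.8 ± 13.1 CPM (SD, n = 6 each). Lipid synthesis and droplet genes had 11 lower and 2 higher of 32, and 3 of 4 genes of carnitine synthesis and transport fell. With nephrectomy in the first cohort, 4 of the 33 mitochondrial and 7 of the 36 peroxisomal genes were called higher and none lower. Over all genes 3.17% were higher and 3.46% lower. In the second cohort 2 of 33 were higher, and of the 36 peroxisomal genes 3 were higher and 3 lower. The shares over all genes there were 2.58% higher and 2.66% lower. Pxmp4, a peroxisomal membrane protein, was called higher in both: from 43.5 ± 6.4 to 85.8 ± 15.6 CPM in the first (SD, n = 6 each; log2 fold change 0.98, SE 0.15, edgeR adjusted p 0.000239) and by a log2 fold change of 0.89 (SE 0.14, edgeR adjusted p 0.000701) in the second.

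Of 24 regulators of the pathway tested, 15 fell and 2 rose at UIRI d7, where 18.1% of all genes fell and 21.5% rose. Ppara, which encodes PPAR-alpha, was at 38.7 to 89.3 CPM in Control (median 69.7), 17.9 to 49.9 in UIRI d3 (median 30.1), 16.7 to 36.5 in UIRI d7 (median 23.4) and 34.3 to 146 in UIRI+Nx d7 (median 56.9). The UIRI d7 libraries lay below all Control libraries, and the nephrectomy libraries spread over the Control range and past both its ends. Its log2 fold change was -1.49 at UIRI d7 against Control (SE 0.31, edgeR adjusted p 0.00034) and 1.55 with nephrectomy against UIRI d7 (SE 0.31, edgeR adjusted p 0.00273). In the second cohort it ran from 32.7 to 61.9 CPM in WT_IRd7 and from 78.4 to 167 in WT_IRNxd7, apart (log2 fold change 1.44, SE 0.25, edgeR adjusted p 0.00209). Ppargc1a, encoding PGC-1alpha, was 157 ± 24.3 CPM in Control, 66.3 ± 4.03 in UIRI d3, 70.6 ± 8.16 in UIRI d7 and 91.3 ± 20.8 in UIRI+Nx d7 (SD, n = 6 each), called lower than Control in all 3. Hnf4a, Rxra and Esrrg were called lower at UIRI d3 and UIRI d7, and Esrra at UIRI d7. None of these 5 was called between the day 7 groups of either cohort, with log2 fold changes of -0.24 to 0.80 in the first and -0.35 to 0.24 in the second. Klf15, a transcription factor of lipid and amino acid use, rose with nephrectomy in the first cohort (log2 fold change 1.99, SE 0.41, edgeR adjusted p 0.00334) but was not called in the second (0.43, SE 0.24, edgeR adjusted p 0.348). Of 12 targets of PPAR-alpha outside the oxidation enzymes, 2 were higher after nephrectomy in the first cohort and 6 in the other. Over all genes 3.17% and 2.58% were. Vnn1 rose in both, and Cyp4a10, an omega-hydroxylase named after its values were seen, rose in the second (log2 fold change 1.55, SE 0.30, edgeR adjusted p 0.00383) and was at 0.39 (SE 0.46, edgeR adjusted p 0.696) in the first.

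Promoter sequences of RefSeq (GRCm38.p6, 250 bases before to 50 after each annotated start) were found for 33 of the 37 genes, as 36 windows. The hexamer AGGTCA, to which nuclear receptors such as PPAR-alpha bind, was searched on both strands and occurred in 7 of the 36 windows (19.4%) and in 16.3% of all 32851 windows. Those 7 belong to Acadm, Acadvl, Acsm1, Cat, Cpt1a, Echs1 and Slc27a2. The direct repeat bound by PPAR with RXR, which is the hexamer written again in the same direction after a single base of any kind, occurred in none of the 36 and in 0.04% of all windows. TCAAGGTCA, the extended form of estrogen-related receptors, which also holds the hexamer, occurred in none and in 0.423% of all. CAAAGTCCA, a form bound by HNF4, occurred in the window of Abcd3 and in 0.475% of all. The matches are descriptions of letters and not of binding. The stretches around the hexamer in 3 genes that stood apart from Control in all injured groups are given 5′ to 3′ on the strand of the gene, all upstream of the start, with the hexamer or its reverse complement in capitals. For Acadm it lies at chr3:153944862-153944893, for Acadvl at chr11:70015485-70015540 and for Cat at chr2:103485327-103485382, each on the minus strand:
Acadm: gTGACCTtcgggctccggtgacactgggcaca
Acadvl: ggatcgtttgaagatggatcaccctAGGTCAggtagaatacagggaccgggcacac
Cat: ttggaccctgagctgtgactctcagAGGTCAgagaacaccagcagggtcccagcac

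The counts come from 3′ ends, and the strand setting of the counting is not given in the sources used here, so reads of a gene and of an antisense neighbour cannot be told apart. Genes on the other strand overlap the last 500 bases of Acadvl, Hadha, Acaa1a, Acaa1b, Eci2, Eci3 and Acsm3 in the GENCODE annotation of GRCm38. The values of these 7 genes, and of Etfb, Hadhb, Acaa1a and Acaa1b with shared 3′ sequence, are uncertain to that extent.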

How the data were processed

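RNA extracted from pieces of kidney pole was sequenced from its 3′ ends (QuantSeq 3′ FWD libraries from 500 ng of RNA), per the labels' protocols. The authors deposited 1 table of raw read counts per gene in 41 columns; per the submitters' processing notes, the tools were Trimmomatic, STAR and HTSeq 0.6.1 on GRCm38 (mm10) in the first cohort and STAR 2.7.11b on GRCm39 in the second, and the strand setting is not given in the sources used here. Symbols were matched for 48349 of 48795 identifiers. Groups came from the labels; 1 column labelled UNDETERMINED, without a group, entered no comparison. Library totals were 5090418 to 33362940 counts, and libraries of a group differed by more than counting error, so the spread between them is the error given. Genes were filtered with edgeR's filterByExpr, scaled by TMM and tested with glmQLFit and glmQLFTest (edgeR 4.0.16, R 4.3.3). There was 1 fit per cohort over all its groups, 15701 and 15543 genes, with Benjamini-Hochberg adjustment. The code of the fit was run on simulated counts of 2 groups with the same spread set for every gene. That setting is simpler than these data, so the run does not show how the test behaves on them. The 37 genes, 8 pathway lists (191 of 192 genes found) and 9 lists of cell type markers were chosen with earlier results of these data known. All 37 could be named; full statistics were given for up to 3 genes per role with the smallest adjusted p in UIRI d7 against Control and up to 4 in each comparison of days or nephrectomy, with up to 3 and 2 genes from each other list and 6 regulators. A gene this rule would name is not reported here. Alternatives were RLE scaling, no filter, DESeq2 1.42.0, the replicate number or library run as a term, only the groups compared, single runs, and leaving out each library. The sum of proximal tubule markers without Kap was added after the data were seen.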

Additional observations from a re-analysis of the deposited data

Results flagged for a closer look

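In 27 of the 259 gene and group pairs, a single library lay further from its nearest neighbour than Dixon's test allows (a gap over range above 0.625 with 6 libraries or 0.829 with 4); chance flags about 1 in 20 groups. Levels are in CPM, with the nearest other library of the group after each. In WT_IRd3, replicate 4 was high in Ehhadh (17.1, next 7.58), Eci2 (94.7, next 69.1), Decr2 (23.6, next 14.6), Acsl1 (182, next 138), Etfdh (26.5, next 15.7), Pex11a (302, next 233) and Abcd3 (230, next 177). Replicate 6 of that group was high in Acaa2 (216, next 140), Acaa1a (233, next 117) and Acaa1b (353, next 198), the last pair sharing sequence at their 3′ ends, and replicate 5 in Cat (584, next 482). In UIRI d3, replicate 6 was high in Acad11 (55.6, next 29.2), Hsd17b4 (99.6, next 51.6), Acsl1 (150, next 118) and Etfa (86.1, next 46.0), and replicate 3 in Acadvl (203, next 157). In UIRI+Nx d7, replicate 4 was high in Echs1 (217, next 132), Eci2 (175, next 103) and Crot (118, next 89.7), and replicate 6 was low in Ehhadh (3.99, next 11.6). In UIRI d7, replicate 1 was high in Etfa (75, next 40.1) and replicate 5 low in Crot (52.2, next 71.0). In Control, replicate 5 was high in Hadha (384, next 249) and replicate 1 in Ehhadh (119, next 34.4). In WT_IRNxd7, with 4 libraries, replicate 1 was high in Slc27a2 (1116, next 773) and Etfdh (24.3, next 13.8), and replicate 4 in Acadl (255, next 224).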

How the results depend on the processing

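Counts are of the 37 genes called. Under RLE scaling, no filter on low counts, DESeq2, the replicate block, library run as a covariate and only the groups compared, the fall at UIRI d3 (33 called), UIRI d7 (35) and UIRI+Nx d7 (25) against Control stayed within 1.5 times, and leaving out a library gave 30 to 34, 34 to 36 and 23 to 26. Within run 1a and run 2b, with fewer libraries, UIRI+Nx d7 against Control gave 15 and 12. UIRI+Nx d7 against UIRI d7 (5) gave 3 with only the groups compared, 1 within run 1a, and 3 to 6 when a library was left out. WT_IRNxd7 against WT_IRd7 (5) gave 3 with the replicate block, 2 with only the groups compared, 0 within run 2a, 0 within run 2c, and 2 to 6 when a library was left out, with 3 higher and 2 lower without WT_IRd7 replicate 6. UIRI d7 against UIRI d3 (1) gave 2 under RLE scaling, 3 with DESeq2, 0 with no filter, 0 within run 1a, and 0 to 2 when a library was left out. UIRI+Nx d7 against UIRI d3 (3) gave 6 with the run covariate, 0 within run 1a, 0 within run 2b, and 2 to 4 when a library was left out. WT_IRd7 against WT_IRd3 (2) gave 0 with the run covariate, 0 within run 2a, and 2 to 3 when a library was left out; WT_IRNxd7 against WT_IRd3 (2) gave 4 with the replicate block and 2 to 3. Where no construction is named, the cause was not tested. No single-gene change called in the fits reported turned its direction. Replicate numbers did not pair the libraries: same-numbered deviations correlated by -0.424 to 0.447 over 50 pairs, and in 0 comparisons were all above 0.1.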

Other observations

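The deposited column that the labels title UNDETERMINED, and put in no group, held 12446693 counts in genes, of which 106849, or 0.858%, fell on the 37 genes (95% Wilson interval 0.853 to 0.864%, which covers counting error only). The share ran from 1.35 to 1.86% in Control, from 0.705 to 0.907% in UIRI d3, from 0.554 to 0.682% in UIRI d7 and from 0.637 to 0.862% in UIRI+Nx d7. In the second cohort it ran from 0.732 to 0.806% in WT_IRd3, from 0.565 to 0.831% in WT_IRd7 and from 0.615 to 0.804% in WT_IRNxd7.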
